A study of Saccharomyces cerevisiae with 24 samples.

Results

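The sulfur-sparing isozyme group is a set of 7 genes of central carbon metabolism from 3 enzyme families, listed by name with no threshold on a measured value, though with earlier results of these data known. They are the pyruvate decarboxylase genes PDC1, PDC5 and PDC6, the enolase genes ENO1 and ENO2 and the aldehyde dehydrogenase genes ALD4 and ALD6. All 7 were found among the 6575 open reading frames (ORFs) of the expression table and among the 4427 ORFs of the promoter and gene body tables. The RNA of the pyruvate decarboxylases and enolases moved towards the isozyme known to be poor in sulfur. That of the aldehyde dehydrogenases moved from ALD6 towards ALD4, and whether that shift spares sulfur was not tested.

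Budding yeast (Saccharomyces cerevisiae) was sampled untreated (0 min, 0 mM) and then after 7.5, 15, 30, 60 and 120 min in 1 mM cadmium chloride. Every group was the laboratory strain W303, mating type a, grown in rich medium, so the mutant alleles ade2-1, can1-100, his3-11,15, trp1-1 and ura3-1 and a mutant leu2 allele were carried by untreated and treated cells alike. The labels list 12 RNA samples and 12 samples of chromatin digested with micrococcal nuclease (MNase), with 2 of each at every time point, and the series text calls the chromatin replicates technical. Each deposited table holds 1 value per ORF and time point, and whether a value combines both samples is not stated, so no replicate error, test or p-value is given below.

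Cadmium binds thiols, and yeast exposed to it draws on large amounts of sulfur to make glutathione, the tripeptide that chelates the metal. Sulfur sparing is the name for a second response, in which abundant enzymes rich in cysteine and methionine are replaced by isozymes with fewer of these residues. Proteome studies of cadmium-treated yeast described Pdc6 and Eno1 as sulfur-poor forms that take over from Pdc1 and Eno2. Which of Ald4 and Ald6 is the sulfur-poor form was not checked here. PDC6 is known to depend on Met4, the activator of sulfur metabolism genes. Enolase makes phosphoenolpyruvate late in glycolysis, pyruvate decarboxylase turns pyruvate into acetaldehyde, and aldehyde dehydrogenase oxidises acetaldehyde to acetate. The residues of these proteins were not counted here because protein sequences were not used.

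In the R64 assembly of the reference strain S288C, PDC1 (YLR044C) lies on chromosome XII at 232390 to 234081 and PDC5 (YLR134W) on the same chromosome at 410723 to 412414. PDC6 (YGR087C) lies on chromosome VII at 651290 to 652981, and ENO1 (YGR254W) on chromosome VII at 1000927 to 1002240. ENO2 (YHR174W) is on chromosome VIII at 451327 to 452640, ALD4 (YOR374W) on chromosome XV at 1039840 to 1041399 and ALD6 (YPL061W) on chromosome XVI at 432588 to 434090. All are annotated as protein-coding genes. The 3 pyruvate decarboxylase genes have the same length, 1692 bp, and so do both enolase genes, 1314 bp. Isozyme genes share long stretches of sequence, enolases above all, and how reads that fit several copies were counted is not stated, so a part of the RNA given to a weakly expressed copy could come from its partner. That part was not tested.

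RNA levels are given as TPM, transcript abundance per length on a total of 1000000 in each column. The columns rested on 31543389 to 33946108 implied reads, and errors given after ± are counting errors of these reads, which leave out biological and library variation. A log2 change is the difference of log2(TPM + 1) from 0 min, and it was counted as a rise or a fall where it reached 1 in size. The median log2 change of all 5965 ORFs averaging 1 TPM or more was -0.10 after 7.5 min, 0.11 after 15 min, 0.35 after 30 min, 0.44 after 60 min and 0.34 after 120 min. In RNA from a whole culture, fewer cells expressing a gene and less RNA per cell cannot be told apart.

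PDC6, ENO1 and ALD4 rose and PDC1, PDC5 and ALD6 fell by 120 min, while ENO2 was above its 0 min level at every treated time and passed the threshold at 15 and 30 min. After 7.5 min 1 of the 7 genes was a rise, where 3.3% of all 5965 ORFs were, and none a fall, where 1.74% were. After 15 min 4 were rises (background 18.3%) and none a fall (12.6%). After 30 min 4 were rises (29.8%) and 1 a fall (16.7%). After 60 min 3 were rises (34.8%) and 3 were falls (18.5%), and the counts after 120 min were again 3 rises (33.8%) and 3 falls (20.2%). Over all treated times 22 of the 35 values passed the threshold. The median log2 change of the 7 genes after 120 min was 0.38, against 0.34 for all ORFs.

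**Figure D1:**
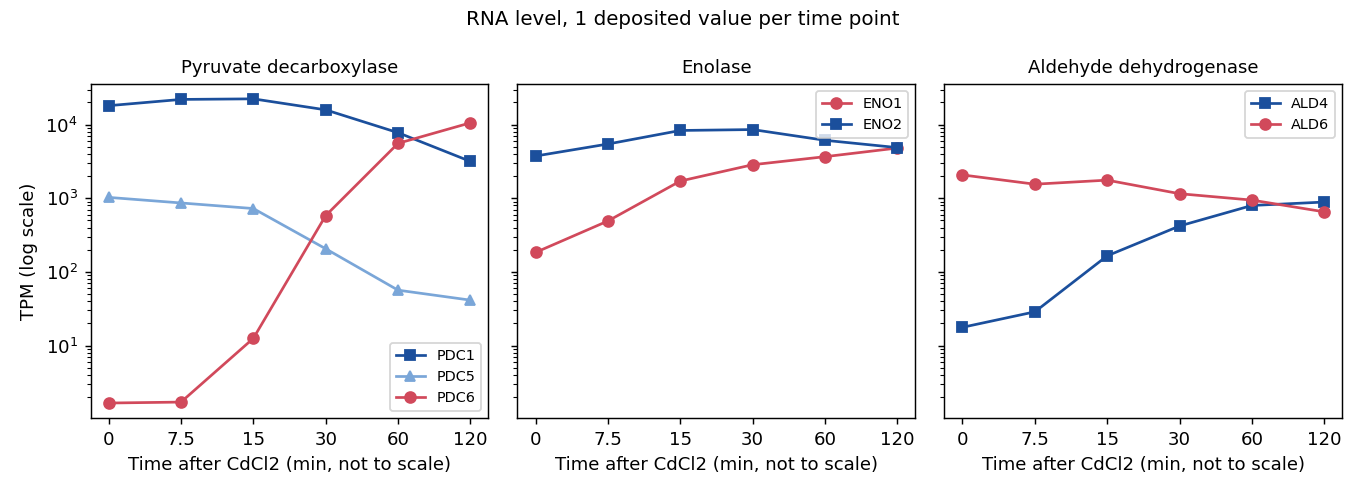
RNA level (TPM, log scale) of the 7 isozyme genes at 6 time points after cadmium chloride was added (min, evenly spaced), with 1 panel per enzyme family and 1 deposited value per point, so without error bars. PDC6 and PDC1 cross between 60 and 120 min, ENO1 comes level with ENO2 after 120 min, and ALD4 and ALD6 cross between 60 and 120 min.

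PDC6, the minor pyruvate decarboxylase gene, had the largest expression change of the whole table at the end of the time course. It stood at 1.66 TPM before cadmium, 1.71 TPM after 7.5 min, 12.5 TPM after 15 min, 582 TPM after 30 min, 5574 TPM after 60 min and 10589 TPM after 120 min. It was thus near silent at 0 and 7.5 min and then climbed at every step. The level after 120 min was 6388 times that before cadmium, which rested on 83 implied reads. Its log2 change was 0.03 ± 0.14 after 7.5 min, 2.35 ± 0.11 after 15 min, 7.78 after 30 min, 11.03 after 60 min and 11.96 ± 0.10 after 120 min. Ranked from the highest change of all 5965 ORFs, PDC6 was in place 1937 after 7.5 min, 241 after 15 min, 5 after 30 min and 1 at both 60 and 120 min. The steepest step was that between 15 and 30 min, of 5.43 on the log2 scale, and by TPM gained the steps to 60 min and to 120 min were nearly equal, 4992 and 5016 TPM. In order of level among the 6575 ORFs it was in place 5699 before cadmium, place 278 after 30 min and place 6 after 120 min.

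PDC1, the major pyruvate decarboxylase gene of fermenting yeast, started as the ORF with the second highest level and fell late. Its RNA was at 18102 TPM before cadmium, 22011 TPM after 7.5 min, 22416 TPM after 15 min, 15888 TPM after 30 min, 7780 TPM after 60 min and 3169 TPM after 120 min. At 7.5 and 15 min it was the ORF with the highest TPM, and only at 60 and 120 min was it past the threshold, at -1.22 and -2.51 on the log2 scale. By level it ranked 32 of all ORFs after 120 min and 2 before cadmium.

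PDC5, the other active pyruvate decarboxylase gene, which is known to be induced when PDC1 is missing or thiamine is scarce, fell earlier and further than PDC1. It was at 1029 TPM before cadmium, 864 TPM after 7.5 min, 726 TPM after 15 min, 206 TPM after 30 min, 56.5 TPM after 60 min and 41.4 TPM after 120 min. Each value lay below the one before it, and PDC5 was at no time above its 0 min level. The log2 change was -2.31 ± 0.02 after 30 min, when that of PDC1 was -0.19, and -4.60 ± 0.03 after 120 min. The ratio of PDC5 to PDC1 fell by 2.97 on the log2 scale after 60 min and by 2.12 after 120 min. Counted from the lowest change of all 5965 ORFs, PDC5 was in place 172 after 120 min.

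Within the pyruvate decarboxylase family, RNA passed from PDC1 to PDC6 between 30 and 120 min. PDC6 made up 0.00866% of the family TPM before cadmium (exact 95% binomial interval 0.00690 to 0.0107%, counting error only), 0.00746% after 7.5 min, 0.0541% after 15 min, 3.49% after 30 min, 41.6% after 60 min and 76.7% after 120 min. PDC1 held 94.6% before cadmium, still 95.3% after 30 min, 58.0% after 60 min and 23.0% after 120 min. PDC5 held 0.300% after 120 min and 5.38% before cadmium. These shares are taken within a column and do not depend on how columns are scaled. The PDC6 to PDC1 ratio changed by 15.16 ± 0.16 on the log2 scale between 0 and 120 min. Over that time PDC6 gained 10588 TPM, and PDC1 fell by 14933 TPM. The 3 genes together stood at 19132 TPM before cadmium, 23154 TPM after 15 min, 13410 TPM after 60 min and 13800 TPM after 120 min, so the family total at the last 2 times was similar while its make-up was not.

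ENO1, an enolase gene, was the only one of the 7 past the threshold after 7.5 min. Its level was 184 TPM before cadmium, 492 TPM after 7.5 min, 1714 TPM after 15 min, 2856 TPM after 30 min, 3674 TPM after 60 min and 4812 TPM after 120 min. The gene climbed at each step, fastest between 7.5 and 15 min. Its log2 change was 1.41 ± 0.02 after 7.5 min, 3.21 after 15 min, 3.95 after 30 min, 4.31 after 60 min and 4.70 ± 0.02 after 120 min, in place 177 of all ORFs from the top.

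ENO2, the enolase gene that prevails on glucose, changed in the same direction at first and then returned towards its starting level. It was at 3749 TPM before cadmium, 5459 TPM after 7.5 min, 8337 TPM after 15 min, 8578 TPM after 30 min, 6133 TPM after 60 min and 4881 TPM after 120 min. The highest value, after 30 min, was 2.29 times that before cadmium, and the spread between the highest and lowest column was the smallest of the 7 genes. The log2 changes were 1.15 after 15 min, 1.19 after 30 min and 0.38 after 120 min. The 120 min change lay 0.040 above the median of all ORFs. With columns rescaled by their median ratio, the 30 min change was 0.85, below the threshold.

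Enolase RNA moved towards ENO1 at every step, without a fall of ENO2 below its 0 min level. ENO1 made up 4.68% of enolase TPM before cadmium, 8.27% after 7.5 min, 17.1% after 15 min, 25.0% after 30 min, 37.5% after 60 min and 49.6% after 120 min. The share increased at every step, and after 120 min both genes were nearly level, with an ENO2 to ENO1 ratio of 1.01. The change in the ENO1 to ENO2 ratio was 0.88 ± 0.02 on the log2 scale after 7.5 min and 4.33 ± 0.02 after 120 min. Family TPM was 3933 before cadmium, 11433 after 30 min and 9693 after 120 min, so both genes together gained RNA where the pyruvate decarboxylases together lost it.

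**Figure D2:**
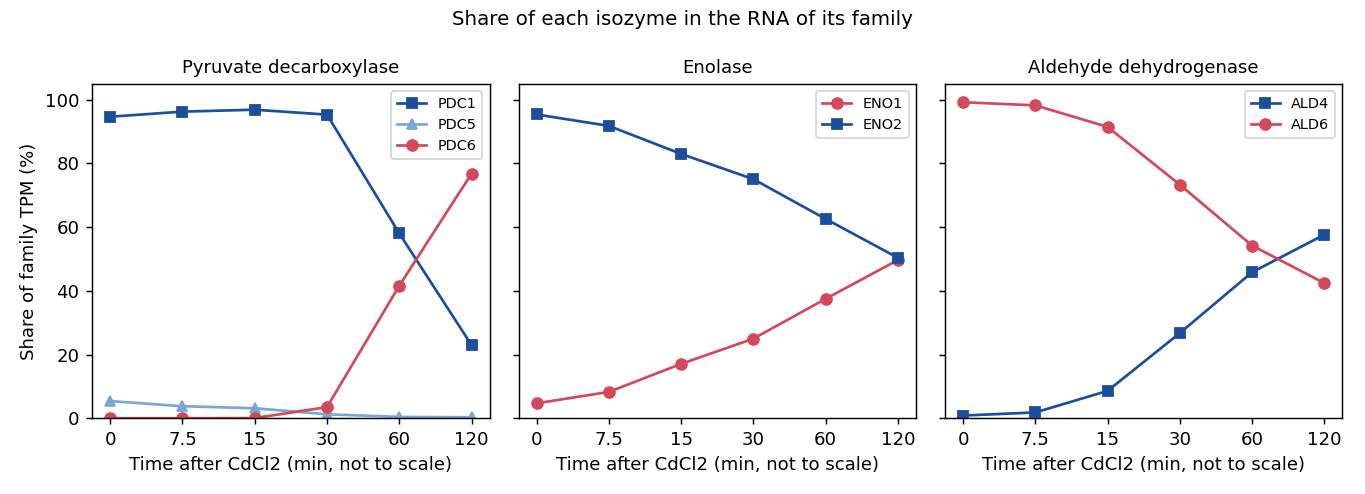
Share of each gene in the summed TPM of those of the 7 genes that belong to its enzyme family (%). The 6 time points after cadmium chloride was added are evenly spaced (min), with 1 value per point. Aldehyde dehydrogenase genes outside the group, such as ALD5, are not in the sum. After 120 min PDC6 holds 76.7% of its sum, ENO1 49.6% and ALD4 57.6%.

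ALD4, the gene of the main mitochondrial acetaldehyde dehydrogenase, rose steadily. It was at 17.7 TPM before cadmium, 28.7 TPM after 7.5 min, 165 TPM after 15 min, 421 TPM after 30 min, 799 TPM after 60 min and 889 TPM after 120 min. Most of the rise was complete by 60 min. The log2 change was 0.67 ± 0.06 after 7.5 min, 3.15 after 15 min, 4.49 after 30 min, 5.42 after 60 min and 5.57 ± 0.05 after 120 min, and in size it was second among the 7 genes to that of PDC6 from 30 min on.

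ALD6, the gene of the main cytosolic acetaldehyde dehydrogenase, fell. It was at 2076 TPM before cadmium, 1554 TPM after 7.5 min, 1764 TPM after 15 min, 1154 TPM after 30 min, 945 TPM after 60 min and 654 TPM after 120 min. All treated columns lay below the 0 min column. The log2 change was -0.42 after 7.5 min, -0.24 after 15 min, -0.85 after 30 min, -1.13 after 60 min and -1.66 ± 0.01 after 120 min.

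Aldehyde dehydrogenase RNA thus moved from ALD6 towards ALD4. ALD6 made up 99.2% of the summed TPM of both genes before cadmium, 98.2% after 7.5 min, 91.4% after 15 min, 73.3% after 30 min, 54.2% after 60 min and 42.4% after 120 min, and ALD4 held the rest, 57.6% after 120 min. The ALD6 to ALD4 ratio changed by -7.32 ± 0.05 on the log2 scale between 0 and 120 min. ALD6 was the numerator of this ratio, as PDC6 and ENO1 were of theirs to PDC1 and ENO2. Those changed by 15.16 and 4.33, the opposite direction. ALD4 and ALD6 together stood at 1543 TPM after 120 min and 2094 TPM before cadmium. Which isozyme of this pair has fewer sulfur residues was not checked, so whether the shift spares sulfur was not tested. Protein was not measured.

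The order of the 7 levels turned over during the time course. Before cadmium it was PDC1, ENO2, ALD6, PDC5, ENO1, ALD4 and PDC6 from high to low, with each level between 1.81 and 10.7 times the next. After 120 min it was PDC6, ENO2, ENO1, PDC1, ALD4, ALD6 and PDC5. Neighbours in this order were close in a few columns. ALD6 was 1.03 times ENO1 after 15 min, PDC6 was below ENO2 by a ratio of 1.10 after 60 min, and ENO2 was 1.01 times ENO1 after 120 min. These gaps exceeded the counting error, 0.02 against 0.005 on the log2 scale for the smallest, and whether they exceed the spread between cultures cannot be told from 1 value per time point.

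Promoter occupancy was read as the number of small MNase fragments, the footprints of transcription factors and other small complexes that shield DNA from the enzyme. A promoter log2 change is the difference of log2(count + 63) from 0 min. Total fragments in the table were 1.47 times as many after 120 min as before cadmium, while over all 4427 promoters the log2 change had a median of -0.09 after 7.5 min, 0.01 after 15 min, 0.12 after 30 min, 0.28 after 60 min and 0.40 after 120 min. None of the 7 promoters passed a change of 1 after 7.5 min, where 0.0226% of all promoters did. After 15 min 1 was higher by at least 1 (background 0.361%), and after 30 min 2 were (0.542%), after 60 min 2 (1.69%) and after 120 min 2 (3%). None was lower by that much in any column. Of all promoters, 0% were lower by at least 1 at 7.5 and 15 min, 0.0452% after 30 min, 0.113% after 60 min and 0.136% after 120 min. With columns divided by their median, the 2 that were higher after 30 min fell below 1, PDC6 at 0.97 and ENO1 at 0.95.

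The 2 promoters past the threshold were those of PDC6 and ENO1. PDC6 had 93 fragments before cadmium, 85 after 7.5 min, 120 after 15 min, 278 after 30 min, 487 after 60 min and 581 after 120 min. Its log2 change was 0.23 ± 0.12 after 15 min, 1.13 ± 0.11 after 30 min and 2.05 ± 0.10 after 120 min. The 15 min change was under 2 counting errors, at a time when PDC6 RNA was already 7.56 times its 0 min level. After 120 min the count was higher than at 99.3% of promoters, and before cadmium it was higher than at 25.3%.

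ENO1 had 49 fragments before cadmium, 113 after 7.5 min, 182 after 15 min, 176 after 30 min, 265 after 60 min and 301 after 120 min. The log2 change after 7.5 min was 0.65 ± 0.13, or 1.11 with a pseudocount of 6.3 fragments and 1.21 with none, both past the threshold. The 0.65 was above 99.7% of all promoters, in the column in which ENO1 RNA first passed its threshold. The log2 change was 1.13 ± 0.12 after 15 min and 1.70 ± 0.11 after 120 min.

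ENO2 had its highest count early. It had 75 before cadmium, 126 after 7.5 min, 153 after 15 min, 93 after 30 min, 100 after 60 min and 120 after 120 min. The log2 change was 0.45 ± 0.12 after 7.5 min and 0.65 ± 0.12 after 15 min, above 99.4% and 99.0% of promoters, and after 30 min it was 0.18 ± 0.13. The count was highest after 15 min, and ENO2 RNA after 30 min.

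PDC1 had the only promoter of the 7 that was below its starting count after 120 min. It had 277 before cadmium, 238 after 7.5 min, 264 after 15 min, 243 after 30 min, 198 after 60 min and 132 after 120 min. The log2 change after 120 min was -0.80 ± 0.11, lower than at all but 0.339% of promoters, or -1.20 once the median of all promoters is subtracted. Counts at the PDC5 promoter lay between 52 and 77 in the 6 columns, and its log2 change was at most 0.22 in size at any time. The pseudocount of 63 is as large as these counts, and the 30 min change of -0.22 became -0.41 with a pseudocount of 6.3 fragments, -0.45 with none and -0.31 with columns divided by their median. Its change at 60 and 120 min was 0.02 and 0.06 in the counts as deposited, and -0.19 and -0.23 with columns divided by their median.

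ALD4 had 178 fragments before cadmium, 182 after 7.5 min, 177 after 15 min, 255 after 30 min, 302 after 60 min and 382 after 120 min. Its log2 change was -0.01 ± 0.11 after 15 min, when ALD4 RNA had risen 9.35 times, and 0.88 ± 0.10 after 120 min. ALD6 had 156 fragments before cadmium, 135 after 7.5 min, 148 after 15 min, 153 after 30 min, 205 after 60 min and 208 after 120 min. The change after 120 min, 0.31 ± 0.11 as deposited, was -0.13 with columns divided by their median, so its direction depends on the scaling.

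**Figure D3:**
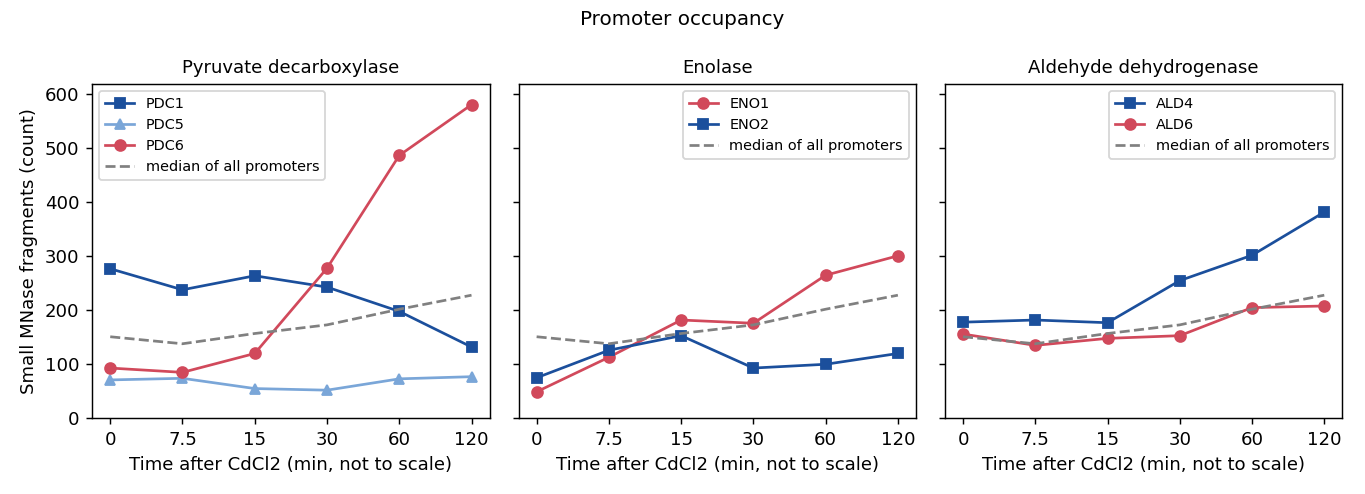
Small MNase fragments (count) at the promoters of the 7 genes and the median of all 4427 promoters (dashed), at 6 time points after cadmium chloride was added (min, evenly spaced), 1 deposited count per point. PDC6 reaches 581 fragments and ENO1 301 after 120 min, and PDC1 is the only gene below its 0 min count at that time.

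A neighbour can share a promoter region, so the genes beside each member were looked up after the values had been seen. PDC6 and CTT1 (YGR088W), the cytosolic catalase gene, are transcribed away from each other with 1652 bp between them. CTT1 RNA was 343 TPM after 120 min and 5.04 TPM before cadmium, and its own promoter row held 94 fragments after 120 min and 45 before cadmium, so both genes rose while their rows in the promoter table held different counts. ENO1 and the proteasome subunit gene PUP2 (YGR253C) are also transcribed away from each other, over 1786 bp. PUP2 stood at 819 TPM after 120 min and 145 TPM before cadmium, with 239 fragments after 120 min and 125 before cadmium. ENO2 and the uncharacterised ORF YHR173C are transcribed away from each other with only 173 bp between them. YHR173C stood at 4.65 TPM after 120 min and 1.10 TPM before cadmium, and it has no row in the promoter table used here. The upstream neighbours of the other 4 genes are transcribed in the same direction as the gene. The part of these neighbours in the counts was not tested.

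Gene body entropy, the authors' score of how irregularly nucleosomes are placed over a gene, was near the highest score of the table at 4 of the 7 genes before cadmium. Before cadmium it was 7.204 at ENO2, 7.205 at ALD6, 7.19 at ENO1 and 7.17 at PDC1, where the median of all ORFs was 6.61 and the highest 7.235. The lowest of these, at PDC1, exceeded that of 97.4% of ORFs. The depth behind the scores is unknown, and they carry no error.

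PDC6 had the largest gain in entropy of the 7 genes. Its entropy was 6.76 before cadmium, 6.702 after 7.5 min, 6.83 after 15 min, 7.09 after 30 min, 7.15 after 60 min and 7.18 after 120 min. The difference from 0 min was 0.326 after 30 min and 0.416 after 120 min, above 97.0% and 96.3% of all ORFs, and the largest step fell between 15 and 30 min, as did that of its RNA on the log2 scale and that of its promoter log2 change.

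PDC1 entropy was 7.17 before cadmium, 7.21 after 7.5 min, 7.200 after 15 min, 7.13 after 30 min, 7.08 after 60 min and 6.98 after 120 min, so it was above the start while its RNA was and below it afterwards. PDC5 entropy was 6.698 before cadmium, 6.599 after 30 min and 6.59 after 120 min, with differences from 0 min of at most 0.108 in size.

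ENO1 entropy lay below its 0 min value from 15 min on, while its RNA lay above. It was 7.19 before cadmium, 7.202 after 7.5 min, 7.101 after 15 min, 7.096 after 30 min, 6.97 after 60 min and 7.103 after 120 min. The difference of -0.226 after 60 min was lower than at all but 8.72% of ORFs. ENO2 stayed within 0.016 of its 0 min value at all times. ALD6 lay between 7.13 and 7.207, and ALD4 between 6.87 and 7.03, with a difference of 0.076 after 120 min against a rise of RNA by 50.2 times.

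**Figure D4:**
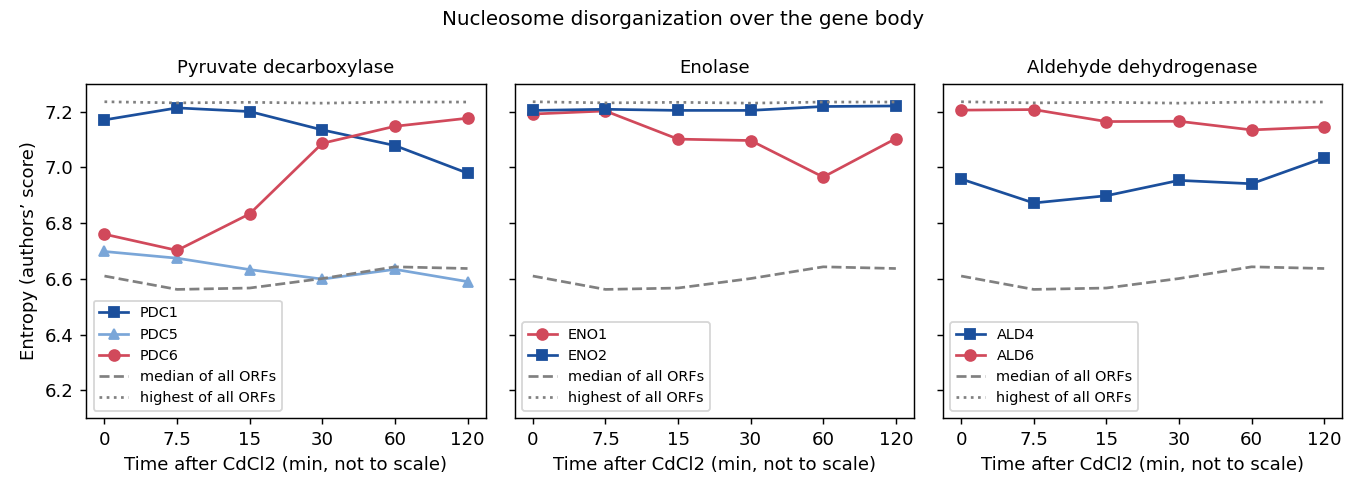
Entropy of nucleosome placement over the gene bodies of the 7 genes (authors' score, axis not starting at 0), with the median (dashed) and the highest value (dotted) of all 4427 ORFs, at 6 time points after cadmium chloride was added (min, evenly spaced). PDC6 climbs to 7.18 after 120 min, ENO1 dips to 6.97 after 60 min, and ENO2 stays at its starting value just under the highest score.

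The rest of the pathway gives the setting of the isozyme changes. Among 15 other glycolysis genes 7 were higher and none lower by at least 1 after 120 min, with a median log2 change of 0.87, against 0.34 for all ORFs. Of all ORFs 33.8% were higher and 20.2% lower at that time. After 30 min 10 were higher (background 29.8%) and none lower (16.7%), with a median of 1.51. HXK1 (YFR053C), a hexokinase gene, had the highest signed mean change of the list and stood at 983 TPM after 120 min, against 7.70 TPM before cadmium. PFK2 (YMR205C), a subunit of phosphofructokinase, had the lowest signed mean change, -0.064, with 400.2 TPM after 120 min and 638 TPM before cadmium. TDH1, a glyceraldehyde-3-phosphate dehydrogenase gene chosen after its values were seen, showed another isozyme climbing from a low level, with 2931 TPM after 120 min and 14.1 TPM before cadmium, while its relative TDH3 stood at 11110 TPM after 120 min and 4191 TPM before cadmium.

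Of 11 other genes of ethanol and acetate formation, 5 were higher (background 33.8%) and 4 lower (20.2%) after 120 min, with a median log2 change of 0.70. The aldehyde dehydrogenase genes outside the group also differed in direction. ALD2 (YMR170C), a stress-induced cytosolic form, had the highest signed mean change of the list and rose to 49.1 TPM after 120 min, against 3.95 TPM before cadmium. ALD5 (YER073W), a mitochondrial form, had the lowest and fell to 17.4 TPM after 120 min, against 330.4 TPM before cadmium. The alcohol dehydrogenase gene ADH1, named after its values were seen, had 1086 TPM after 120 min and 2976 TPM before cadmium.

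Of 6 regulators of the sulfur genes, 3 rose after 7.5 min (background 3.3%), a column before PDC6 did. MET28 and MET32, a cofactor and a DNA-binding partner of Met4, were at 254 and 165 TPM after 7.5 min, against 5.99 and 4.22 TPM before cadmium, when PDC6 was at its starting level. Both stayed past the threshold in all later columns. MET30, the ubiquitin ligase subunit that restrains Met4, stood at 138 TPM after 7.5 min and 862 TPM after 120 min, against 64.7 TPM before cadmium. MET4 itself was at 207 TPM after 120 min and 83.1 TPM before cadmium, MET31 at 9.79 TPM after 120 min and 52.0 TPM before cadmium, and CBF1 at 93.0 TPM after 120 min and 87.2 TPM before cadmium. After 7.5 min the log2 changes of MET4, CBF1 and MET31 were -0.07, 0.03 and -0.37. In all, 4 of the 6 were higher (background 33.8%) and 1 lower (20.2%) after 120 min. A link between these regulators and the rise of PDC6 was not tested.

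None of 6 regulators of glycolytic genes was higher after 120 min (background 33.8%), and 1 was lower (20.2%). That was RAP1 (YNL216W), a general regulator of glycolytic and ribosomal protein genes, with a mean change of -1.37, at 33.8 TPM after 120 min, against 101 TPM before cadmium. GCR1 (YPL075W), the activator of glycolytic genes, had the highest signed mean change of the list, 0.69, with 48.0 TPM after 120 min and 32.2 TPM before cadmium. PDC2, an activator of PDC1 and PDC5, was at 38.0 TPM after 120 min and 61.4 TPM before cadmium, a log2 change of -0.68 that did not pass the threshold. Of 15 genes of thiamine synthesis and uptake, the cofactor of pyruvate decarboxylase, 12 passed the filter of 1 TPM on the mean, and 6 of these were higher (background 33.8%) and 3 lower (20.2%) after 120 min. THI4 (YGR144W), which makes the thiazole part of thiamine, stood at 63.1 TPM after 120 min and 2.07 TPM before cadmium, and PHO3 (YBR092C), a phosphatase that releases thiamine, at 2.16 TPM after 120 min and 413 TPM before cadmium. At 30, 60 and 120 min THI4 was past the threshold as a rise and PDC5 as a fall. The list genes THI7, THI80 and PHO3 were also past it as falls at these times. A link between PDC5 and thiamine was not tested.

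**Figure D5:**
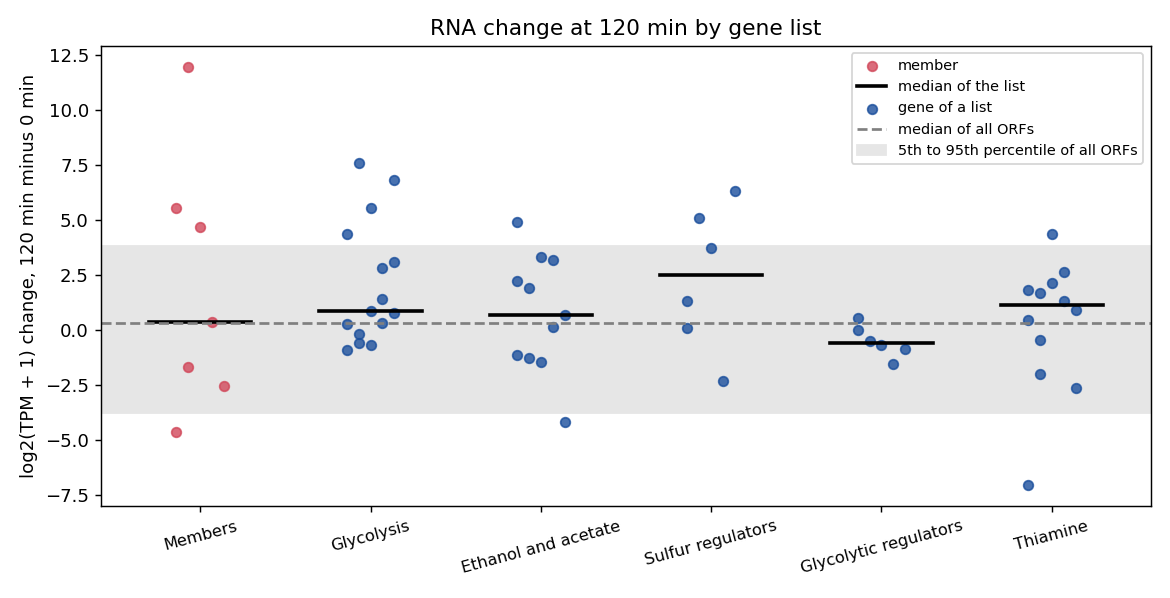
Log2(TPM + 1) change after 120 min relative to 0 min for the 7 isozyme genes (red) and for 5 gene lists (blue), each point 1 gene averaging 1 TPM or more. Black bars are list medians, the dashed line the median of all 5965 ORFs (0.34) and the grey band their 5th to 95th percentile; PDC6, ALD4 and ENO1 lie above the band and PDC5 below it.

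The ORFs with the expression courses most like each gene were found by the root mean square difference of their log2 changes at the 5 treated time points, out of 5403 other ORFs averaging 10 TPM or more. PDC6 had the highest change of all ORFs at 60 and 120 min, and this measure counts the size of changes. No ORF came close to PDC6 by it. The nearest were SPG4 and GRE1, stress and stationary phase genes, at 1.21 and 1.33. For the other 6 genes the nearest ORF lay between 0.108 and 0.235. PDC1 was followed most closely by LEU1 and HOM2, genes of leucine and threonine-methionine synthesis, at 0.235 and 0.238, and PDC5 by the ribosomal protein genes RPS6A and RPL15A at 0.162 and 0.174. ENO1 was nearest to CLD1, a cardiolipin lipase gene, and YBR085C-A at 0.220 and 0.266. ENO2 was nearest to YML018C and the hexokinase gene HXK2, both at 0.12. ALD4 had FMP40 and UBC8 at 0.12 and 0.13. ALD6 had LAG1, a ceramide synthase gene, and SHE3, an mRNA transport gene, at 0.108 and 0.146. Among the 7 genes themselves PDC1 and ALD6 were the most alike, at 0.624, and ENO1 and ALD4 next, at 0.754, so the pairs most alike were drawn from different enzyme families.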

How the data were processed

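The authors deposited TPM per ORF for 6575 ORFs, whole-number counts of small MNase fragments per promoter for 4427 ORFs and an entropy score per gene body for the same 4427 ORFs, each with 1 column per time point per the file headers. Per the submitters' processing notes, Bowtie 0.12.7 and the builds sacCer3 and R64 were used, with no step named. The fragment length range, promoter and gene body windows, entropy formula, strand, counting of shared reads and pooling of replicates are not given in the sources used here.

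ORF names were matched to RefSeq genes (R64), which gave lengths for 89.7% of ORFs. TPM times length was a whole multiple of 1 step within 0.02 read for about 99.5% or more of matched ORFs above 0 in each column, and reads implied by that step were used for counting errors, depths and the alternative shares of reads. This step was tested on simulated data. Changes were differences of log2(TPM + 1), log2(count + 63) (63 being the table's 10th percentile) and plain entropy. The RNA background held the ORFs averaging 1 TPM or more. The threshold was an absolute log2 change of 1. Alternatives were pseudocounts of 0.1 and 5 TPM, other filters, rescaled columns, a 7.5 min baseline, other promoter pseudocounts and scaling, quantile-normalized entropy and shares of reads.

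The genes and lists were chosen with earlier results of these data known. All 7 genes were named, with the 2 ORFs nearest to each in course and the highest and lowest signed mean change of each list. All 6 sulfur regulators could be named. Other genes were named after their values were seen. Analyses used Python 3.11.15, numpy 2.4.6, pandas 2.3.3 and scipy 1.17.1.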

Additional observations from a re-analysis of the deposited data

How the results depend on the processing

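No paired analysis was possible because the columns carry no replicate number. The planned fits across replicates and the planned sum of sulfur residues per family were not run, as the tables hold no replicates and protein sequences were not used. Of the 22 RNA changes past the threshold, all 22 kept their direction after rescaling by the median ratio, and 21 stayed past the threshold under both pseudocounts and rescaling, ENO2 at 30 min being the exception. At 120 min, rescaling gave log2 changes of -2.86 for PDC1, -4.94 for PDC5, 11.68 for PDC6, 4.36 for ENO1, 0.035 for ENO2, 5.24 for ALD4 and -2.01 for ALD6. Against the 7.5 min column they were -2.80 for PDC1, -4.35 for PDC5, 3.29 for ENO1, -0.16 for ENO2, 4.90 for ALD4 and -1.25 for ALD6, so the sign at ENO2 depends on the baseline. A pseudocount of 5 TPM gave -4.48 for PDC5, 10.64 for PDC6 and 5.30 for ALD4, and one of 0.1 TPM gave 12.56 for PDC6. Shares of implied reads at 120 min were 58.5% for ALD4 and 41.5% for ALD6. With each column divided by its median, promoter log2 changes at 120 min were -1.18 for PDC1, -0.23 for PDC5, 1.52 for PDC6, 1.23 for ENO1, 0.046 for ENO2, 0.39 for ALD4 and -0.13 for ALD6, so PDC1 then passed the threshold, and 5 of the 7 promoter changes past it stayed past it. Without a pseudocount they were -1.07 for PDC1, 2.64 for PDC6, 2.62 for ENO1, 0.68 for ENO2 and 1.10 for ALD4, and with one of 6.3 fragments -1.03 for PDC1, 2.56 for PDC6 and 2.47 for ENO1. Scaling turned the sign of 6 of 35 promoter changes, none of them past the threshold. Quantile-normalized entropy changes at 120 min were -0.227 for PDC1, -0.14 for PDC5, 0.405 for PDC6, -0.117 for ENO1, 0.0118 for ENO2, 0.032 for ALD4 and -0.0838 for ALD6, and log2 ratios were -0.039, -0.023, 0.086, -0.018, 0.0032, 0.016 and -0.012 in that order. Quantile normalization turned the sign of 2 of 35 entropy changes, PDC5 and ALD6 at 7.5 min. The cause of these shifts was not tested. Only PDC6 at 0 and 7.5 min was limited by RNA depth, with 83 and 85 implied reads, and promoter changes under about 0.25 lie within 2 counting errors.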
